A study of Mus musculus with 6 samples.

Results

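Amino acid transporter solute carriers are the membrane proteins that move amino acids, and for some members peptides, creatine or taurine, into, out of and between the compartments of a cell. They were taken here as the protein-coding genes of the families Slc1, Slc3, Slc6, Slc7, Slc15, Slc36, Slc38 and Slc43, by symbol, together with *Slc16a10*. This gave 70 of the 54532 genes in the deposited table. One of them, *Slc7a6os*, was taken by its symbol alone: it is a neighbour of *Slc7a6* on the opposite strand and is not a carrier, so counts are also given without it. Of the 70 genes, 29 had a mean of at least 0.5 FPKM over the 6 libraries (fragments counted on a gene, scaled for its length and by a factor per library) and were called expressed. Of the other 41, 12 had no read in any library. The expressed gene nearest to that threshold was *Slc38a9*, with a mean of 0.693 FPKM, and the nearest below it was *Slc6a19*, with 0.294 FPKM.

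RNA came from primary macrophages of wild-type mice (WT, titled METRNL+/+) and of mice labelled METRNL KO (KO, titled METRNL-/-), with 3 libraries per genotype. *Metrnl* encodes the secreted protein meteorin-like. All 6 cultures had been exposed to the yeast *Candida albicans* for 6 h, and no unexposed libraries were analysed, so each value below describes challenged cells. The labels give neither the age, sex or strain of the mice nor the tissue the macrophages came from. Nor is it said what a replicate was, an animal, a culture or a repeat preparation. Each p-value therefore reflects the spread among these 3 libraries per group, part or all of which may be technical.

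Amino acid carriers set what a macrophage can build and burn. Heterodimeric carriers join a glycoprotein heavy chain, which brings the pair to the cell surface, to a light chain of the Slc7 family, which does the transport and sets the substrate. Cells short of an amino acid, or under other stresses that lead to phosphorylation of eIF2alpha, make the transcription factor ATF4. Several carrier genes, together with genes of amino acid synthesis, belong to the programme that ATF4 drives. In macrophages, arginine uptake feeds nitric oxide synthase and arginase, cystine uptake feeds glutathione, and carriers of the lysosome return amino acids from digested cargo to the cytosol.

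Reads in genes, recovered from the deposited values, ranged from 11026529 to 15724897 per library. FPKM summed over all genes came to 412048 in KO replicate 1, against 311410 (WT replicate 1) to 365689 (WT replicate 3) in the other libraries. The main fit did not rescale for this total, and its part in single values of replicate 1 was not tested. Replicate 1 stood apart in both groups: the first principal component (63.4% of the variance) parted the genotypes, and the second (17.9%) set WT replicate 1 and KO replicate 1 at opposite ends. *Metrnl* RNA was present in all libraries, at 75.5 ± 15.9 FPKM (SD, n = 3) in WT against 59.2 ± 6.95 FPKM in KO, and did not pass the test (limma adjusted p = 0.181). A value per gene cannot show which exons remained, so it does not check the genotype labels. The 10 macrophage markers were all expressed, and summed to 4814 to 5615 FPKM in WT and 8496 to 9181 FPKM in KO. Of these, 4 rose, among them *Lyz2* (2.01-fold) and *Adgre1* (1.46-fold). Another 2 fell, *Marco* (to 0.264 of WT) and *Fcgr1* (to 0.261 of WT). Among all tested genes, 15.7% rose and 12.4% fell. Markers of other cells also moved with genotype. The 11 B cell markers summed to 566 to 728 FPKM in WT and 30.01 to 38.5 FPKM in KO, and all 11 fell. The 8 T and NK cell markers summed to 11.9 to 13.9 FPKM in WT and 2.20 to 2.99 FPKM in KO, and 4 of 4 tested fell. The 8 dendritic cell markers summed to 147 to 235 FPKM in WT and 42.9 to 54.9 FPKM in KO, and 5 of 7 tested fell. Neutrophil markers (8 genes) summed to 907 to 1211 FPKM in WT and 676 to 759 FPKM in KO, with 2 of 7 tested lower. The 8 mesothelial and fibroblast markers (15.4 to 18.5 FPKM in WT, 6.97 to 8.92 FPKM in KO, 4 of 6 tested lower) and the 6 mast cell markers (6.51 to 8.08 FPKM in WT, 0.993 to 1.39 FPKM in KO) were scarce. Some of these markers reached the 0.5 FPKM mean only through their WT values and so had to be lower in KO: 4 for B cells (*Ebf1*, *Ighd*, *Ms4a1*, *Pax5*), 2 for T and NK cells (*Cd2*, *Cd3d*), 1 for dendritic cells (*Flt3*), 1 for mesothelial cells and fibroblasts (*Col3a1*) and all 4 tested for mast cells. No marker in these lists was at 0 in all 6 libraries. Their part in the carrier results was not tested, and in bulk RNA fewer cells of a type and less RNA per cell cannot be told apart. The labels' extraction text names retinas. The 8 retinal markers summed to 0.614 to 1.33 FPKM, most of it *Pde6b*.

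More carrier genes were higher than lower in KO. Of the 29 expressed genes, 14 rose and 2 fell (limma, Benjamini-Hochberg adjusted p below 0.05 over 11689 tested genes). Among all tested genes, 15.7% rose and 12.4% fell, against 48.3% and 6.90% of the carrier genes. Without *Slc7a6os*, 14 of 28 rose and 2 fell. The median log2 fold change, with 1 FPKM added to each value before taking logs and WT subtracted from KO, was 0.40 over the 29 genes and 0.03 over all tested genes. The 3 KO values lay all above the 3 WT values in 16 carrier genes and all below them in 3. Over all tested genes these shares were 25.7% and 19.9%. *Slc1a4* and *Slc6a9* reached the 0.5 FPKM mean only through their KO values, so they had to be higher in KO. With a minimum mean of 2 FPKM, which left both out along with other low genes, 11 rose and 1 fell. Rescaled to TPM, in which every library has the same total, 11 of the 29 rose and 2 fell. Among all 11689 tested genes, 542 rose and 1161 fell in TPM. Without both replicate 1 libraries 17 carrier genes rose and 3 fell. Calls over all tested genes also went up in that run, from 1833 to 2252 higher and from 1445 to 1908 lower. The libraries left in it were much alike. Their read counts differed by a chi-square per degree of freedom of 2.3 in KO and 7.1 in WT, where counting noise alone gives about 1. Pairs with replicate 1 gave 39.6 to 59.4. Adjusted p-values of that run, here and below, rest on this small spread.

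Summed over the 70 genes, carrier RNA came to 1287, 1360.4 and 1470 FPKM in WT replicates 1 to 3 and to 2280.4, 1873 and 1887 FPKM in KO replicates 1 to 3. This was 0.400% to 0.413% of all FPKM in WT and 0.553% to 0.564% in KO, and the groups did not overlap. Levels were very unequal. *Slc3a2*, *Slc15a3*, *Slc7a2* and *Slc7a11* were each above 100 FPKM in every library and together made up 72.1% to 80.3% of the sum. The plot of values by library shows this range, from *Slc3a2* at the top down to *Slc38a9*.

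**Figure D1:**
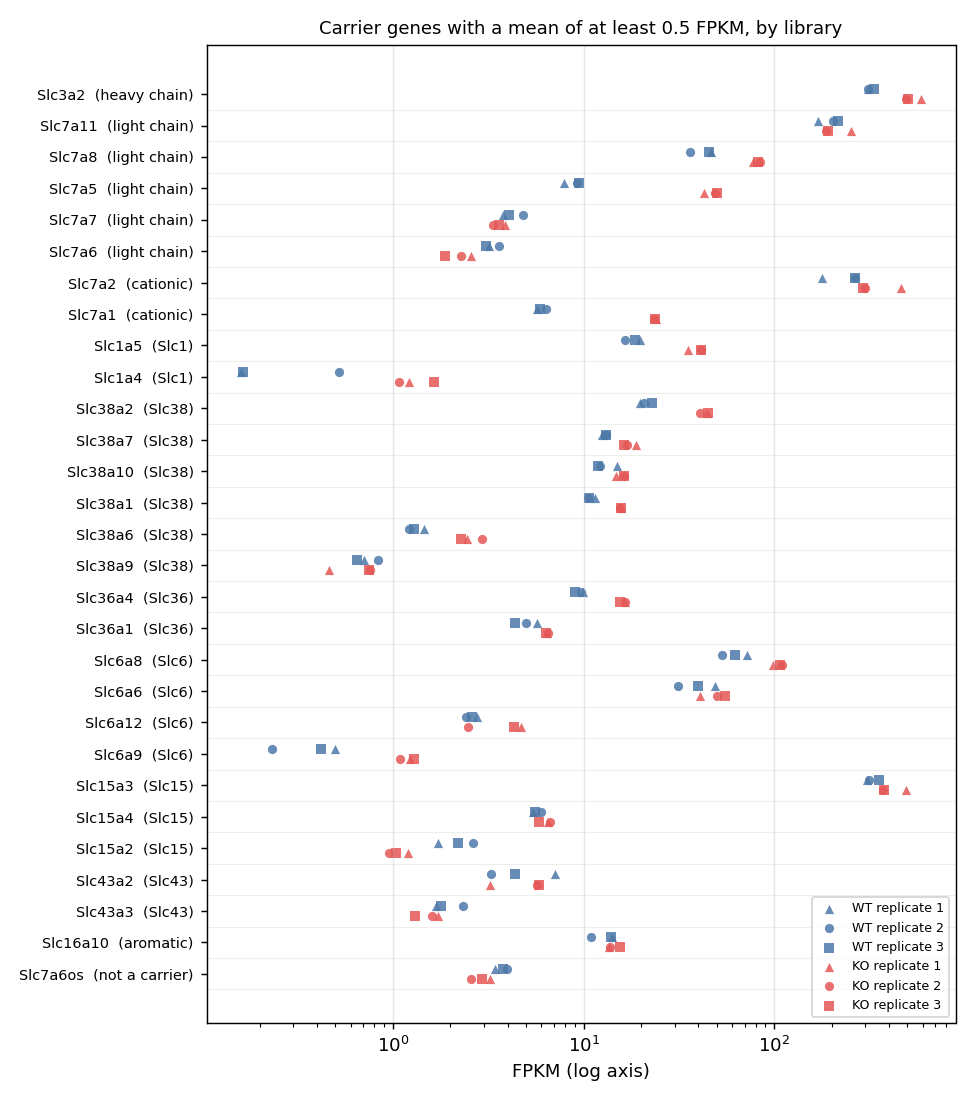
Deposited FPKM on a log axis for the 29 expressed genes, 1 row per gene with its role group in brackets; blue points are WT and red points KO libraries, with a marker shape per replicate. The KO points of *Slc7a5*, *Slc7a1*, *Slc1a4* and *Slc6a9* lie well to the right of the WT points, while those of *Slc7a11*, *Slc16a10* and *Slc43a2* overlap them.

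**Figure D2:**
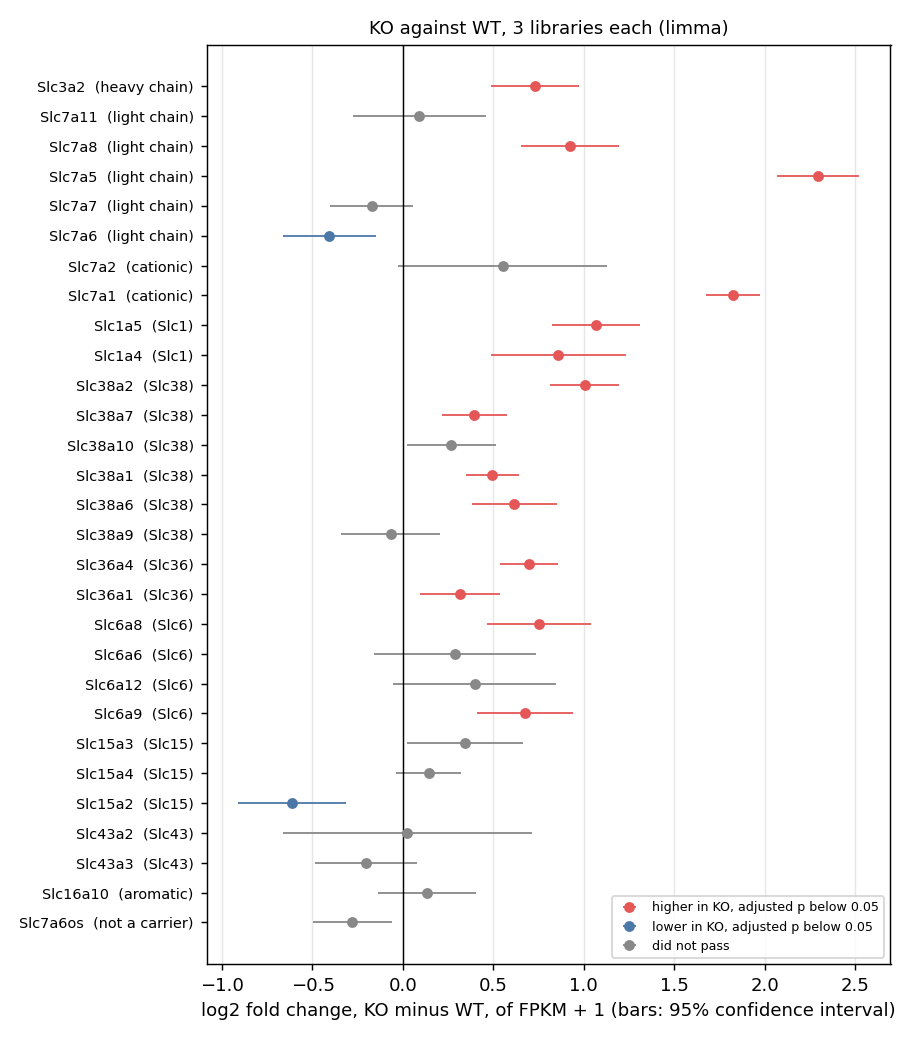
Log2 fold change, KO minus WT, of FPKM + 1 with its 95% confidence interval for the same 29 genes; red genes rose, blue genes fell and grey genes did not pass. *Slc7a5* (2.30) and *Slc7a1* (1.82) lie farthest to the right, and *Slc15a2* (-0.61) and *Slc7a6* (-0.41) are the blue genes.

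Promoter letters are shown for 5 carriers whose start windows held one of a pair of motifs tied to amino acid or oxidative stress. Of these, 3 rose (*Slc38a2*, *Slc1a4* and *Slc6a9*), and *Slc7a11* and *Slc7a7* did not pass. *Slc1a4* and *Slc6a9* were tested only because of their KO values and had to be higher. Letters are not printed for *Slc7a6*, which fell, and *Slc36a1*, which rose, though both held a match. RefSeq promoter windows (GRCm38.p6, 250 bases before to 50 after each annotated start) matched 21 of the 29 expressed genes by symbol. The C/EBP-ATF composite element of amino acid response genes was searched as TGATGNAAN on both strands, and its final N leaves 8 letters that count. It was in the windows of 3 of the 21 genes (14.3%), *Slc7a11*, *Slc1a4* and *Slc7a7*, and in those of 4.50% of all 27025 RefSeq genes. The core of the antioxidant response element, bound by NRF2 and related factors, was searched as TGACNNNGC on both strands. It was in 5 of the 21 genes (23.8%), among them *Slc6a9*, *Slc7a6*, *Slc36a1* and *Slc38a2*, and in 3781 of all 27025 genes. Genes with several starts have more windows; counted by window, the shares were 11.8% of 34 against 3.95% for the first motif and 20.6% against 12.4% for the second. A match shows letters only and no binding was measured here. Capitals mark the matches, and each stretch is written 5′ to 3′ on the gene's own strand.

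Slc7a11 (chr3:50443633-50443699, minus strand), 2 composite matches facing each other, the first starting 66 and the second 48 bases before the start:
Slc7a11: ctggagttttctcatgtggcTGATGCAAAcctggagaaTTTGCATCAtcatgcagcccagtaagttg
Slc1a4 (chr11:20332699-20332728, minus strand), 1 composite match as the reverse complement, which begins 5 bases before the start and runs across it:
Slc1a4: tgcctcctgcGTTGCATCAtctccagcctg
Slc7a7 (chr14:54418057-54418105, minus strand), a composite match that starts 141 bases before one of its starts:
Slc7a7: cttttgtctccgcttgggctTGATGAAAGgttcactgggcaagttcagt
Slc38a2 (chr15:96699729-96699775, minus strand), an antioxidant core match 27 bases before the start:
Slc38a2: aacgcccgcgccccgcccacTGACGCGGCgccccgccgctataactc
Slc6a9 (chr4:117849284-117849332, plus strand), an antioxidant core match 46 bases before one of its starts:
Slc6a9: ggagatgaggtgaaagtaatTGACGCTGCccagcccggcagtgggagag

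**Figure D3:**
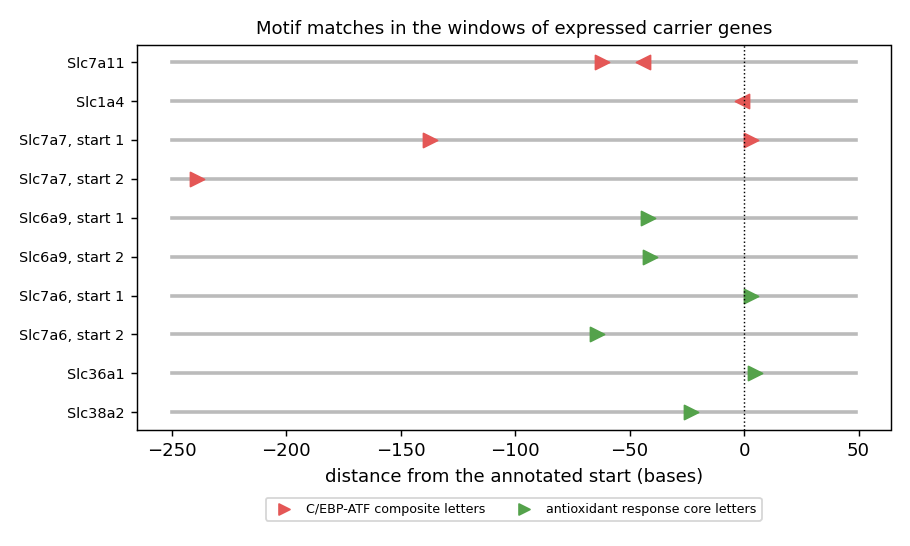
Positions of the matches in the windows of 7 expressed carrier genes that held one, in bases from the annotated start (dotted line), with red for the composite element and green for the antioxidant core; arrows pointing left are reverse complements, and starts are numbered among those with a match. The 2 matches of *Slc7a11* lie within 66 bases of its start, and those of *Slc1a4* and *Slc38a2* within 27 bases.

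The heavy chain gene rose, and of 5 expressed light chain genes 2 rose, 1 fell and 2 did not pass. The light chain shares were 40% higher and 20% lower, against 15.7% and 12.4% of all tested genes. With so few genes these counts say little about the light chains as a group. *Slc3a2* (ENSMUSG00000010095, chromosome 19, 8706882 to 8723369, minus strand) encodes CD98, the heavy chain shared by several Slc7 carriers. It stood at 311, 309 and 333 FPKM in WT replicates 1 to 3 and at 592, 494 and 503 FPKM in KO replicates 1 to 3. All KO libraries lay above all WT libraries, and KO replicate 1, which had the largest FPKM total, was highest. The rise was 1.67-fold (0.73 ± 0.10 SE on the log2 scale, limma adjusted p = 0.00415). The other heavy chain gene, *Slc3a1*, had 8 reads over the WT and 4 over the KO libraries.

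*Slc7a5* (ENSMUSG00000040010, chromosome 8, 121881150 to 121907694, minus strand) encodes LAT1, the light chain that takes up leucine and other large neutral amino acids in exchange for glutamine. Its values were 7.91, 9.21 and 9.44 FPKM in the WT and 42.9, 49.2 and 49.9 FPKM in the KO libraries. It had the largest log2 fold change among the expressed carriers (5.35-fold, 2.30 ± 0.09 SE, limma adjusted p = 6.86e-05), with the groups far apart. *Slc7a8*, which encodes the related light chain LAT2, rose 1.91-fold, from 46.8, 35.96 and 45.4 FPKM in WT to 77.1, 84.7 and 82.5 FPKM in KO (0.92 ± 0.11 SE on the log2 scale, limma adjusted p = 0.00272). In WT its level per length was 42.7 ± 5.88 FPKM against 8.85 ± 0.826 FPKM for *Slc7a5* (SD, n = 3). In KO the levels were 81.4 ± 3.91 and 47.3 ± 3.86 FPKM.

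*Slc7a11* (ENSMUSG00000027737, chromosome 3, 49892526 to 50443614, minus strand) encodes xCT, the light chain that imports cystine and exports glutamate. It did not pass: the WT libraries gave 170, 204 and 216 FPKM and the KO libraries 253, 188 and 191 FPKM. The groups overlapped, with KO replicate 1 highest and WT replicate 1 lowest of all 6. The log2 fold change was 0.09 with a 95% confidence interval of -0.28 to 0.46 (limma adjusted p = 0.696), and it was -0.15 without both replicate 1 libraries (limma adjusted p = 0.106). The facing pair of composite letters printed above for *Slc7a11* lies at a gene whose RNA was high in both genotypes.

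The light chains for cationic and neutral exchange were scarce. *Slc7a6*, for y+LAT2, fell from 3.18, 3.62 and 3.08 FPKM in WT to 2.58, 2.29 and 1.87 FPKM in KO (-0.41 ± 0.11 SE on the log2 scale, limma adjusted p = 0.0333). Its groups did not overlap, but the call was lost when any library other than KO replicate 1 was left out (limma adjusted p from 0.0641 to 0.0995). *Slc7a7*, for y+LAT1, stood at 4.22 ± 0.512 FPKM in WT against 3.63 ± 0.264 FPKM in KO (SD, n = 3; limma adjusted p = 0.227). It overlaps the opposite-strand gene *Oxa1l* (4.78 FPKM on average), and it is not given whether counting used strand. *Slc7a6os*, which is no carrier, was at 3.74 ± 0.274 FPKM in WT against 2.91 ± 0.329 FPKM in KO and did not pass (limma adjusted p = 0.0659).

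Summed over these 5 light chains, a sum formed after the values were seen, RNA came to 231, 258 and 278 FPKM in the WT and 379, 328 and 328 FPKM in the KO libraries. Divided by *Slc3a2* in the same library, this gave 0.743, 0.835 and 0.836 in WT and 0.641, 0.663 and 0.654 in KO. The heavy chain therefore exceeded the summed light chains in every library, by a wider margin in KO. *Slc7a11* made up 73.3% to 79.2% of light chain RNA in WT and 57.4% to 66.7% in KO. The share of *Slc7a5* was 3.39% to 3.57% in WT and 11.3% to 15.2% in KO, and that of *Slc7a8* was 13.9% to 20.2% and 20.3% to 25.9%. These are RNA levels per kilobase of the table's gene length, so the comparison between genes depends on that length.

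**Figure D4:**
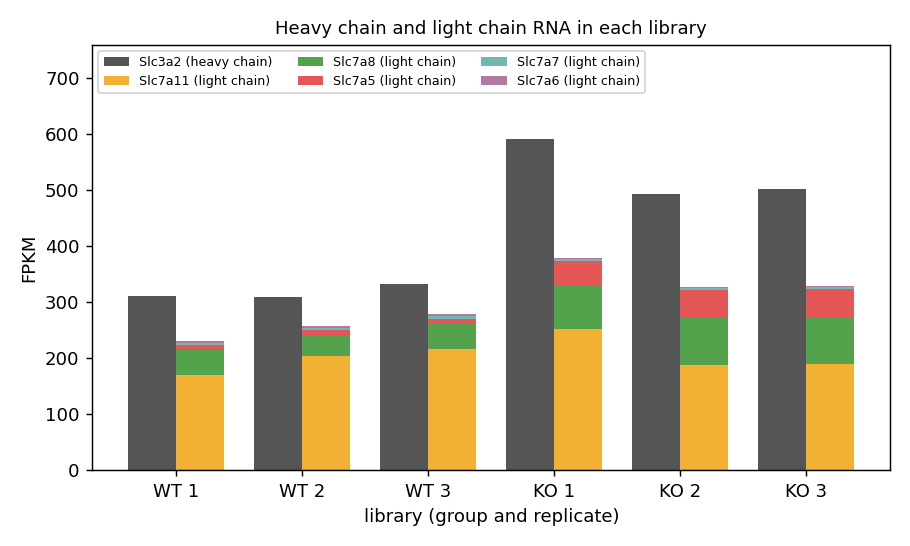
FPKM of the heavy chain gene *Slc3a2* (grey bars) beside the stacked FPKM of 5 light chain genes in each of the 6 libraries. The red *Slc7a5* segment is a thin band in WT (7.91 to 9.44 FPKM) and a clear one in KO (42.9 to 49.9 FPKM), while the yellow *Slc7a11* segment is the largest in every library.

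Of the expressed cationic amino acid transporter genes, *Slc7a1* rose and *Slc7a2* did not pass; the difference between them was not tested. *Slc7a1* (ENSMUSG00000041313, chromosome 5, 148327410 to 148399904, minus strand) encodes CAT1, the widely expressed carrier of arginine and lysine. It rose 3.96-fold, from 5.73, 6.36 and 5.88 FPKM in WT to 23.96, 23.5 and 23.8 FPKM in KO (1.82 ± 0.06 SE on the log2 scale, limma adjusted p = 4.49e-05). The spread within each group was small beside the gap between them. *Slc7a2* (ENSMUSG00000031596, chromosome 8, 40862396 to 40922308, plus strand) encodes CAT2, the carrier that supplies arginine to activated macrophages. It was at 177, 266 and 267 FPKM in WT and at 461, 298 and 291 FPKM in KO. No KO library fell among the WT libraries, yet replicate 1 was the lowest of WT and the highest of KO, and the difference did not pass (log2 fold change 0.55, 95% confidence interval -0.02 to 1.13, limma adjusted p = 0.135). Without both replicate 1 libraries the log2 fold change was 0.14 (limma adjusted p = 0.101). *Slc7a2* overlaps the opposite-strand non-coding gene *Gm26584* (5.83 FPKM on average). *Slc7a2* was above *Slc7a1* in every library, by 30.9-fold to 45.4-fold in WT and 12.2-fold to 19.2-fold in KO. *Slc7a3* (0.282 FPKM on average), *Slc7a4* and *Slc7a14* were below the threshold.

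Of 9 listed and tested enzymes of arginine and polyamine metabolism, 1 rose and 2 fell (11.1% and 22.2%, against 15.7% and 12.4% of all tested genes), so few calls that the counts say little about these enzymes as a group. Argininosuccinate synthase, *Ass1*, which rebuilds arginine from citrulline, fell from 108 ± 7.05 to 58.3 ± 7.20 FPKM (SD, n = 3; limma adjusted p = 0.00272). Spermidine synthase, *Srm*, fell from 10.1 ± 1.79 to 4.47 ± 0.721 FPKM (limma adjusted p = 0.00531). Argininosuccinate lyase, *Asl*, rose from 6.66 ± 0.617 to 8.57 ± 0.111 FPKM (limma adjusted p = 0.0252), a call lost in TPM (limma adjusted p = 0.278) and when any library other than WT replicate 1 was left out (limma adjusted p from 0.0555 to 0.0847). *Sat1*, which acetylates polyamines, and *Odc1*, the first enzyme of polyamine synthesis, did not pass (limma adjusted p = 0.159 and 0.223). Inducible nitric oxide synthase, *Nos2*, varied widely (190 ± 118 FPKM in WT, 85.4 ± 82.3 FPKM in KO, limma adjusted p = 0.26) and was lower in KO without both replicate 1 libraries (limma adjusted p = 0.00249).

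Of the Slc1 genes for carriers of glutamine and small neutral amino acids, *Slc1a5* rose, and *Slc1a4* was tested only because of its KO values. *Slc1a5* (ENSMUSG00000001918, chromosome 7, 16781340 to 16798274, plus strand), which encodes the glutamine exchanger ASCT2, was at 19.7, 16.4 and 18.6 FPKM in WT and at 35.1, 41.5 and 41.4 FPKM in KO. The groups did not overlap, and the rise was 2.16-fold (1.07 ± 0.10 SE on the log2 scale, limma adjusted p = 0.00113). Its relative *Slc1a4*, for the serine and alanine exchanger ASCT1, rose from 0.159, 0.519 and 0.163 FPKM to 1.21, 1.08 and 1.65 FPKM (limma adjusted p = 0.0103). This rests on 42 reads over the WT and 225 over the KO libraries. Its log2 fold change of 0.86 on the scale with 1 FPKM added understates the 4.69-fold ratio of means. The 5 glutamate carriers of the Slc1 family, *Slc1a1*, *Slc1a2*, *Slc1a3*, *Slc1a6* and *Slc1a7*, averaged at most 0.0610 FPKM, and *Slc1a6* had no read.

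Of the 6 expressed Slc38 genes, 4 rose and 0 fell (66.7% and 0%, against 15.7% and 12.4% of all tested genes). At an unadjusted p below 0.05 (limma) the counts were 5 and 0, against 2706 and 2066 of all 11689 tested genes. *Slc38a2* (ENSMUSG00000022462, chromosome 15, 96687392 to 96699730, minus strand) encodes SNAT2, the sodium-coupled carrier that cells make when amino acids run short. It rose 2.05-fold, from 19.8, 20.9 and 23.0 FPKM in WT to 44.6, 40.9 and 45.2 FPKM in KO (1.00 ± 0.08 SE on the log2 scale, limma adjusted p = 5.77e-04). *Slc38a1*, for SNAT1, lies 44.5 kb away on chromosome 15 and rose 1.45-fold, from 11.5, 10.5 and 10.7 FPKM to 15.8, 15.5 and 15.8 FPKM (limma adjusted p = 0.00284; 0.0785 in TPM). The next gene of that cluster, *Slc38a4*, had 18 reads over the WT and 2 over the KO libraries. *Slc38a2* was 1.73-fold to 2.15-fold above *Slc38a1* in WT and 2.63-fold to 2.86-fold in KO, which does not overlap.

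*Slc38a6* rose 1.94-fold, from 1.46, 1.21 and 1.28 FPKM to 2.45, 2.94 and 2.29 FPKM (limma adjusted p = 0.00681). *Slc38a10* was at 14.96, 12.2 and 11.9 FPKM in WT and at 14.8, 16.4 and 16.3 FPKM in KO, and the groups overlapped. It did not pass (limma adjusted p = 0.0964), but was called higher without WT replicate 1 (limma adjusted p = 0.025).

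Of the genes for SNAT7 and the Slc36 carriers, *Slc38a7*, *Slc36a4* and *Slc36a1* rose. *Slc38a7*, for SNAT7, which lets glutamine and asparagine out of lysosomes, was at 12.5, 13.2 and 13.2 FPKM in WT and at 18.9, 16.9 and 16.3 FPKM in KO, and rose 1.34-fold (limma adjusted p = 0.012; 0.0818 in TPM). *Slc36a4*, for the amino acid carrier PAT4, rose 1.69-fold, from 9.90, 9.74 and 9.03 FPKM to 16.5, 16.4 and 15.4 FPKM (0.70 ± 0.07 SE on the log2 scale, limma adjusted p = 0.00113). *Slc36a1*, for the lysosomal carrier PAT1, went from 5.69, 4.997 and 4.37 FPKM to 6.46, 6.54 and 6.38 FPKM and was called higher by a small margin (limma adjusted p = 0.0473). All 3 genes had KO values above all WT values. The *Slc36a1* call was lost in TPM (limma adjusted p = 0.352) and when any library other than WT replicate 1 was left out (limma adjusted p from 0.0897 to 0.132). Its neighbour *Slc36a2*, below the threshold, had 14 reads over the WT and 60 over the KO libraries.

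*Slc38a9*, the lysosomal arginine sensor that signals to mTORC1, was at 0.709, 0.834 and 0.650 FPKM in WT and at 0.463, 0.755 and 0.747 FPKM in KO. The groups overlapped and it did not pass (log2 fold change -0.07, 95% confidence interval -0.34 to 0.20, limma adjusted p = 0.691). It overlaps the antisense gene *Gm47827* (0.915 FPKM on average). Of 15 other tested genes of lysosomal amino acid sensing, 7 rose and 0 fell (46.7% and 0%, against 15.7% and 12.4% of all tested genes). At an unadjusted p below 0.05 (limma) the counts were 9 and 0, against 2706 and 2066 of all 11689 tested genes. In TPM 3 rose, against 542 of the 11689. The GTPase gene *Rheb*, the direct activator of mTORC1, rose 2.06-fold, from 11.4 ± 0.366 to 23.5 ± 0.450 FPKM (SD, n = 3; limma adjusted p = 2.18e-04). *Lamtor3* and *Lamtor1*, for parts of the Ragulator scaffold, rose 1.58-fold and 1.61-fold, the Rag GTPase genes *Rragc* and *Rraga* 1.46-fold and 1.33-fold, and *Fnip1* 1.46-fold, with limma adjusted p from 0.00211 to 0.00745. In TPM the calls of *Lamtor1*, *Rraga* and *Fnip1* were lost (limma adjusted p = 0.0621, 0.169 and 0.0843).

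The Slc15 family carries peptides and histidine with protons, and none of its members rose (limma). At an unadjusted p below 0.05 (limma) 1 of the 3 expressed was higher, against 2706 of all 11689 tested genes. *Slc15a3* (ENSMUSG00000024737, chromosome 19, 10839727 to 10859362, plus strand), an endolysosomal member, was among the most abundant carriers, at 306, 313 and 354 FPKM in WT and 491, 374 and 378 FPKM in KO. The groups did not overlap. KO replicate 1, which had the largest FPKM total, was far above the rest. The difference did not pass (log2 fold change 0.34, 95% confidence interval 0.02 to 0.67, limma adjusted p = 0.105). *Slc15a3* overlaps the opposite-strand gene *Tmem132a* (20.01 FPKM on average). *Slc15a4*, its endolysosomal relative needed for signalling by nucleic acid sensing Toll-like receptors, was at 5.46, 5.98 and 5.53 FPKM in WT and at 6.49, 6.70 and 5.85 FPKM in KO, and did not pass (limma adjusted p = 0.209). *Slc15a2*, for the surface carrier PEPT2, fell from 1.72, 2.62 and 2.19 FPKM to 1.20, 0.955 and 1.03 FPKM (-0.61 ± 0.12 SE on the log2 scale, limma adjusted p = 0.0146). Its groups did not overlap, and the call was lost without WT replicate 3, KO replicate 2 or KO replicate 3 (limma adjusted p = 0.0531, 0.0572 and 0.0549). B cell, T cell, dendritic cell and mast cell marker levels, given above, also fell, and their part in the falls of *Slc15a2* and *Slc7a6* was not tested.

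The Slc6 family was mostly silent: of 21 genes, 4 were expressed and 6 had no read. *Slc6a8* (ENSMUSG00000019558, chromosome X, 73673150 to 73682502, plus strand), which imports creatine, rose 1.69-fold, from 71.9, 53.3 and 62.2 FPKM to 98.6, 109.8 and 107 FPKM (0.75 ± 0.12 SE on the log2 scale, limma adjusted p = 0.00653). *Slc6a9*, for the glycine carrier GlyT1, rose from 0.497, 0.231 and 0.420 FPKM to 1.23, 1.08 and 1.30 FPKM (limma adjusted p = 0.00726), on 82 reads over the WT and 269 over the KO libraries. In both genes the groups did not overlap, but *Slc6a9* was tested only because of its KO values and had to be higher in KO. The taurine carrier gene *Slc6a6* was at 49.2, 31.1 and 39.9 FPKM in WT and at 40.9, 50.1 and 55.2 FPKM in KO and did not pass (limma adjusted p = 0.293), but was called higher without both replicate 1 libraries (limma adjusted p = 0.0333). *Slc6a12*, which carries betaine, was at 2.76, 2.42 and 2.59 FPKM in WT and at 4.69, 2.49 and 4.31 FPKM in KO. It did not pass (limma adjusted p = 0.166), and KO replicate 2 alone lay within the WT range (limma adjusted p = 0.0157 without it).

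The aromatic carrier gene and the expressed Slc43 genes did not pass. *Slc16a10*, for the aromatic amino acid carrier TAT1, was at 14.1, 10.9 and 13.9 FPKM in WT and at 13.6, 13.7 and 15.5 FPKM in KO (log2 fold change 0.13, 95% confidence interval -0.14 to 0.40, limma adjusted p = 0.43). *Slc43a2*, for LAT4, ranged from 3.26 to 7.10 FPKM in WT and from 3.25 to 5.85 FPKM in KO (limma adjusted p = 0.961). Its replicate 1 was the highest library of WT and the lowest of KO, and without both it was called higher (log2 fold change 0.50, limma adjusted p = 0.0449). *Slc43a3*, a carrier of purine bases rather than amino acids, was at 1.93 ± 0.344 FPKM in WT against 1.54 ± 0.215 FPKM in KO (SD, n = 3; limma adjusted p = 0.246).

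Genes of amino acid synthesis and of the ATF4 programme outside the carriers were higher in KO. Of 24 listed, 20 were tested, 17 rose and 0 fell (85% and 0%, against 15.7% and 12.4% of all tested genes). At an unadjusted p below 0.05 (limma) the counts were also 17 and 0, against 2706 and 2066 of all 11689 tested genes. The median log2 fold change was 1.23. *Psph* and *Cth* reached the 0.5 FPKM mean only through their KO values and had to be higher in KO; of the genes above it in both groups, 15 rose. This list was chosen with earlier results of these libraries known, so its direction is no independent evidence. *Chac1*, which degrades glutathione, rose 18.5-fold, *Asns*, asparagine synthetase, 8.05-fold, *Trib3* 9.84-fold and *Sesn2*, a leucine sensor of the mTORC1 pathway, 5.57-fold. *Mthfd2* of mitochondrial folate metabolism rose 3.86-fold and *Aldh18a1* of proline synthesis 5.50-fold. The limma adjusted p of these 6 lay between 6.42e-06 and 1.12e-04. *Atf4* itself rose 1.62-fold, from 179 ± 10.7 to 289 ± 21.9 FPKM (SD, n = 3; limma adjusted p = 0.00347).

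Of 14 tested amino acid carriers outside these families, 5 rose and 0 fell (35.7% and 0%, against 15.7% and 12.4% of all tested genes). At an unadjusted p below 0.05 (limma) the counts were 6 and 1, against 2706 and 2066 of all 11689 tested genes. In TPM 2 rose, against 542 of the 11689. With so few genes these counts say little about the list as a group. *Ctns*, the lysosomal cystine exporter, rose 2.23-fold, from 6.08 ± 1.21 to 13.6 ± 2.82 FPKM (SD, n = 3; limma adjusted p = 0.00925). *Pqlc2*, the lysosomal exporter of cationic amino acids, rose 1.52-fold (limma adjusted p = 0.00344; 0.0793 in TPM), and *Slc25a44*, the mitochondrial carrier of branched-chain amino acids, 2.05-fold (limma adjusted p = 8.35e-04). *Slc25a13*, a mitochondrial aspartate and glutamate carrier, and *Slc17a5*, the lysosomal sialic acid carrier, rose 1.70-fold each. Both calls were lost in TPM (limma adjusted p = 0.127 and 0.165) and without WT replicate 2 (0.073 and 0.107), WT replicate 3 (0.0706 and 0.111), KO replicate 2 (0.0819 and 0.112) or KO replicate 3 (0.0772 and 0.115). The mitochondrial glutamate carrier gene *Slc25a22* stood at 2.51 ± 0.688 FPKM in WT against 1.51 ± 0.178 FPKM in KO and did not pass (limma adjusted p = 0.0644), with a call as lower without WT replicate 1 (limma adjusted p = 0.0283).

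*Slc7a11* is usually counted among NRF2 target genes. Of 10 other tested glutathione and NRF2 genes, 0 rose and 2 fell (limma), against 15.7% and 12.4% of all tested genes. These are too few calls to set the list apart. At an unadjusted p below 0.05 (limma) the counts were 1 and 2, against 2706 and 2066 of all 11689 tested genes. *Nqo1*, a quinone reductase, fell from 24.8 ± 4.44 to 13.1 ± 1.72 FPKM (SD, n = 3; limma adjusted p = 0.00919), and *Gsr*, glutathione reductase, from 76.0 ± 8.35 to 47.0 ± 9.43 FPKM (limma adjusted p = 0.0199). The *Gsr* call was lost without WT replicate 2, WT replicate 3, KO replicate 2 or KO replicate 3 (limma adjusted p from 0.0673 to 0.0725). *Gclc*, *Gclm* and *Srxn1* were at 46.6 ± 7.85, 58.8 ± 10.4 and 318 ± 84.6 FPKM in WT against at 35.98 ± 4.94, 51.1 ± 1.98 and 239 ± 41.3 FPKM in KO and did not pass (limma adjusted p = 0.129, 0.346 and 0.241). *G6pdx*, which regenerates NADPH, was at 31.9 ± 5.28 and 40.7 ± 0.725 FPKM (limma adjusted p = 0.0719; called higher without WT replicate 1, 0.0155).

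**Figure D5:**
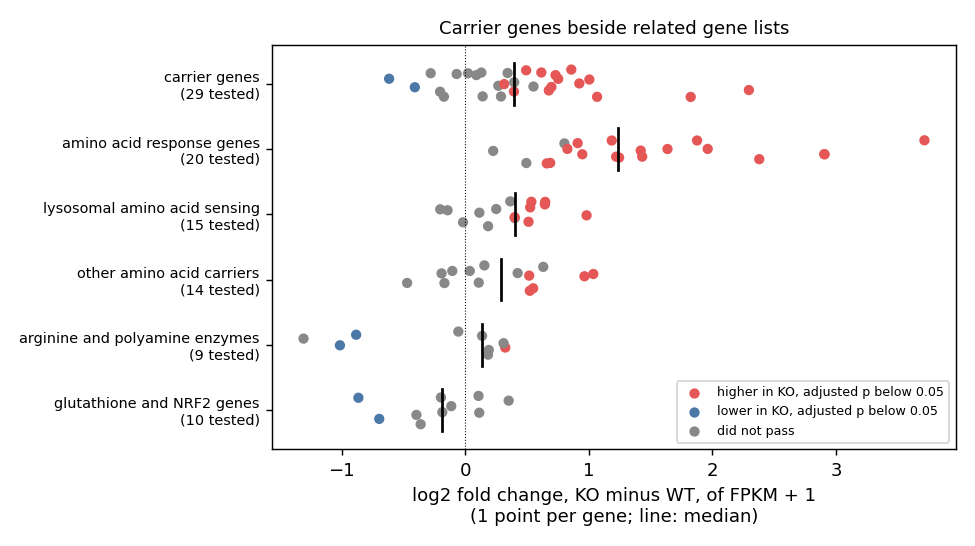
Log2 fold change, KO minus WT, of FPKM + 1 for every tested gene (1 point each) of the carrier set and of 5 related lists, with a black line at each median; red genes rose, blue genes fell and grey genes did not pass. The medians run from 1.23 for amino acid response genes and 0.40 for the carriers down to -0.19 for glutathione and NRF2 genes.

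The 41 carrier genes below the threshold included 29 with at least 1 read. The most read were *Slc6a19* (51 reads over the WT and 74 over the KO libraries), *Slc7a3* (40 and 47) and *Slc36a2* (14 and 60). The 12 with no read were *Slc38a5*, *Slc6a3*, *Slc6a4*, *Slc6a5*, *Slc6a11*, *Slc6a14*, *Slc6a18*, *Slc7a9*, *Slc7a12*, *Slc7a13*, *Slc1a6* and *Slc15a5*. They are mostly known from neurons, kidney or gut. No fold is given for genes this scarce.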

How the data were processed

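Which aligner, counter, strand setting and annotation release were used is not given in the sources used here. Per the submitters' processing notes, reads were placed on GRCm38 (mm10). The authors deposited 1 table of FPKM values per gene and library, with gene lengths. FPKM multiplied by gene length gave whole multiples of 1 step per library (within 0.05 of a step), from which reads per gene were recovered. The step was 78.2 in KO replicate 1 (14772746 reads in genes) and 62.4 in WT replicate 1 (14309247 reads). The deposited scaling therefore did not follow reads in genes alone, and how it was set is not given. In the table, 0 sample columns were left unused. Genes averaging 0.5 FPKM or more across all 6 libraries were tested with limma 3.58.1 (R 4.3.3) on log2(FPKM + 1), with genotype as the only term, a mean-variance trend and Benjamini-Hochberg adjustment over all 11689 genes at 0.05. A fold change on this scale understates the change of low genes. Folds in the text without "log2" are ratios of mean FPKM. The fit was tried on simulated data with independent counts, no outlying replicate and libraries rescaled by a median of ratios. The main fit has no such rescaling, so the simulation does not cover the spread of replicate 1 or the unequal FPKM totals here.

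The members and gene lists were chosen with earlier results of these data known. Every expressed carrier was named; values by library were set for the 14 called carriers with the largest change and for 11 carriers of known role. From each other list up to 6 tested genes with the smallest p were named; *Atf4* and *Gclm* were added after their values were seen. Sums and ratios of carriers were also formed after the values were seen. Alternatives were TPM, log2 CPM of the recovered reads, another pseudocount (0.1) or filter (2 FPKM, or none), quantile normalization, other variance settings, a replicate block, leaving out each library, and leaving out both replicate 1 libraries. Promoter windows came from RefSeq (GRCm38.p6), matched by symbol; 1 gene with a match is not reported here.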

Additional observations from a re-analysis of the deposited data

How the results depend on the processing

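The count of 14 carriers called higher was 13 to 15 when each library was left out in turn, and that of 2 called lower was 0 to 2; the lower count was 1 with a 2 FPKM minimum mean, with no filter and with quantile normalization. Over all genes, 1833 were higher and 1445 lower; the higher count was 542 in TPM, 686 on log2 CPM, and 912 to 1681 with a library left out. The lower count was 876 with the 2 FPKM minimum, where fewer genes were tested, and 851 to 1337 with a library left out. The median log2 fold change of all genes was 0.03, and -0.11 on log2 CPM.

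It is not given whether the replicate numbers pair the libraries. Deviations of same-numbered libraries from their group means correlated at -0.505, -0.191 and -0.158, and no library correlated best with its own number. Each mean held only 3 libraries, and replicate 1 stood apart in both groups in opposite directions. These values therefore cannot tell whether a number marks a shared animal, day or preparation. With the replicate block, 9 carriers were higher and 0 lower (all genes: 479 and 604), other carriers 2 higher, arginine enzymes 0 higher and glutathione genes 1 lower.

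Among the lists, 5 other carriers were called higher, against 2 in TPM, 2 on log2 CPM, 3 with no filter and 3 to 6 with a library left out; 0 were lower, against 1 on log2 CPM, 1 without both replicate 1 libraries and 0 to 1 with a library left out. For arginine enzymes, 1 was higher, against 0 in TPM, 0 on log2 CPM, 0 with no filter, 2 without both replicate 1 libraries and 0 to 1 with a library left out. For glutathione genes, 0 were higher, against 1 without both replicate 1 libraries and 0 to 1 with a library left out, and 2 were lower, against 1 to 2. For lysosomal sensing, 7 were higher, against 3 in TPM, and 0 lower, against 1 on log2 CPM. The cause of these shifts was not tested.

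Changes of sign were limited to 4 carriers that did not pass. *Slc7a11* was at -0.062 on log2 CPM, -0.078 with quantile normalization, -0.15 without both replicate 1 libraries and -0.048 to 0.165 with a library left out (negative without replicate 1 of either group). *Slc16a10* was at -0.012 on log2 CPM. *Slc43a2* was at -0.048 in TPM, -0.12 on log2 CPM and -0.19 to 0.277 with a library left out. *Slc38a9* was at 0.061 with quantile normalization, 0.0092 without both replicate 1 libraries and -0.113 to 0.018 with a library left out. Of the 29 expressed genes, 12 held direction and call, or lack of a call, in every alternative run that tested them. The other 17 changed in at least one. Those that held as higher were *Slc3a2*, *Slc7a5*, *Slc7a8*, *Slc7a1*, *Slc1a5*, *Slc38a2*, *Slc36a4* and *Slc6a9*. *Slc7a2*, *Slc7a7*, *Slc15a4* and *Slc43a3* stayed uncalled. The run with a 2 FPKM minimum mean tested 23 of the genes and left out *Slc6a9* and *Slc43a3*.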
